A study of Mus musculus with 8 samples.

Results

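The small leucine-rich proteoglycans (SLRPs) are secreted matrix proteins with a core of leucine-rich repeats, and most of them carry chondroitin, dermatan or keratan sulfate chains. They bind fibrillar collagens and set how thick and how regularly spaced the fibrils become. Several also bind growth factors such as TGF-beta or signal through cell surface receptors, and in the lung they are made mostly by fibroblasts. The 10 genes taken here by symbol were Dcn, Bgn and Aspn of class I, Fmod, Lum, Prelp, Kera and Omd of class II, Ogn of class III and Podn of class V, out of 54532 entries of the count table. Of the 10 genes, 9 had at least 1 count and 8 passed the filter on low counts, as did 14150 entries in all. They were taken by family membership, with earlier results of these data known.

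RNAseq was carried out on primary lung fibroblasts (pFBs) of female mice of a C57/black background, cultured from wild type animals (WT) and from animals homozygous (HOMO) for a CRISPR/Cas9 knock-in of human IGFBP5. IGFBP5 is a secreted protein that binds insulin-like growth factors and promotes fibrosis. The Ef1a1 promoter drives the transgene in all tissues, so that the cultured cells themselves express it, and neither genotype received a further treatment. There were 4 libraries of each genotype, named by genotype and replicate number as WT1 to WT4 and HOMO1 to HOMO4. The age of the mice, and the number of mice and cultures behind the libraries, are not given in the sources used here, so that a p measures the spread between these libraries, which may be technical. Library totals ran from 17236521 to 31987790 counts. Levels are given as CPM, counts scaled to a common library size, by TMM, and 3 counts, taken as the floor of detection, equal between 0.0908 and 0.172 CPM by counting error alone. Some libraries were nearly alike. The 3 pairs WT1 with WT2, HOMO1 with HOMO2, and HOMO3 with HOMO4 had a coefficient of variation between libraries, beyond counting error, of 4.71 to 7.65%, whereas the other pairs within a genotype differed by 30.1 to 56.5%. The fibroblast genes were the highest of the marker lists, with summed levels of 18473 to 24356 CPM in WT and 18834 to 31583 CPM in HOMO. Its genes went both ways in HOMO. By edgeR, the log2 fold change was -0.65 for Vim (adjusted p = 0.0430), -0.97 for Pdgfrb (0.0251) and -1.62 for Thy1 (0.116). It was 0.82 for Col1a1 (0.0985) and 0.66 for Col1a2 (0.105). Mouse Igfbp5 had a mean of 107.6 CPM in WT and 1.73 CPM in HOMO libraries (log2 fold change -5.97 ± 1.66 SE, adjusted p = 0.0469 by edgeR). This differs from the authors' report, in which mouse Igfbp5 could not be detected in either genotype and the transgene left its mRNA unchanged. The cause of the difference was not tested, and the human transgene was not analysed here.

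The genes lie in clusters. On chromosome 10 of GRCm38 (mm10, annotated by GENCODE M21), Dcn (chr10:97479609-97518143), Lum (chr10:97565128-97572703) and Kera (chr10:97606879-97613692) follow each other on the plus strand. On chromosome 13, Aspn (chr13:49544443-49567565), Omd (chr13:49582462-49592822) and Ogn (chr13:49608046-49624501) lie on the plus strand inside the span of Cenpp, a kinetochore gene on the opposite strand. On chromosome 1, Prelp (chr1:133910304-133921414, minus strand) neighbours Fmod (chr1:134037254-134048277, plus strand). Bgn (chrX:73483602-73495933, plus strand) and Podn (chr4:108014791-108096445, minus strand) stand alone. Whether the counting used strand is not stated. An antisense gene, Gm15851, covers 9.68% of the exon bases of Prelp but had between 0 and 5 counts in every library. Cenpp shares 7 exon bases with Aspn and none with Omd or Ogn.

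The sequences shown are the 250 bases before the RefSeq start sites (GRCm38.p6) of the neighbours on chromosome 1, of which Fmod is the one member called as a differentially expressed gene (DEG), and of the neighbours on chromosome 13, whose levels peaked in different libraries. Each reads 5′ to 3′ on the strand of its gene. Capitals mark matches on either strand to TATAAA, the letters of a promoter box of that name, to CCAAT, to the GC box GGGCGG, to the AP-1 site TGANTCA or to the TEAD site GGAATG.
Fmod, chr1:134037004-134037253, plus strand: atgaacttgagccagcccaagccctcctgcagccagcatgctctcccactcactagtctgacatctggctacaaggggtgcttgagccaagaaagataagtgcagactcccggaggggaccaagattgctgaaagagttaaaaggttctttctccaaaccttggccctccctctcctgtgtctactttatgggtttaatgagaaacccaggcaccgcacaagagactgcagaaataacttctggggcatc
Prelp, chr1:133921402-133921651, minus strand: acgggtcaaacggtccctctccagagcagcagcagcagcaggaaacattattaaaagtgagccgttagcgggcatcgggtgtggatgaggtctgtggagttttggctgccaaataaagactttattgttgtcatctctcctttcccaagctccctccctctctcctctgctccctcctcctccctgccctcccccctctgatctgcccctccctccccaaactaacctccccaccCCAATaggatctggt
Aspn, chr13:49544193-49544442, plus strand: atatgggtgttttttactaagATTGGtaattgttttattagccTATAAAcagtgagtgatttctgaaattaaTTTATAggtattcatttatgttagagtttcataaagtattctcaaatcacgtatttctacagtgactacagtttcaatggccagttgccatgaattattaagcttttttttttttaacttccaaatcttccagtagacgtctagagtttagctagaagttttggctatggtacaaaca
Omd, chr13:49582212-49582461, plus strand: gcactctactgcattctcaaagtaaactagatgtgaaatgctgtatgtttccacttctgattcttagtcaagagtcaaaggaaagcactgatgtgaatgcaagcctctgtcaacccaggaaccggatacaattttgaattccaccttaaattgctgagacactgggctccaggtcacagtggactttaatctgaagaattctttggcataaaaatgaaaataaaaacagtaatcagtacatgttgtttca
Ogn, chr13:49607765-49608014, plus strand: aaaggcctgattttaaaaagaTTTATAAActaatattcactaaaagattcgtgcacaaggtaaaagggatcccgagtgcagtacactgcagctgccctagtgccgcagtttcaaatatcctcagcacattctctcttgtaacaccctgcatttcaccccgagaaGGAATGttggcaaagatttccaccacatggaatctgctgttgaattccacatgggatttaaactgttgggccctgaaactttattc
The windows of Fmod and Omd held none of these letters. The Aspn window held TATAAA and its reverse complement 207 and 178 bases before the start, with a CCAAT match on the other strand at 229. The Ogn window held an overlapping pair of such matches to TATAAA at 229 and 227 bases before the start and GGAATG at 86, and the Prelp window held CCAAT at 15. Among the 8 members with a window in the table, TATAAA was found in 2, CCAAT in 3, GGGCGG in 2, GGAATG in 1 and TGANTCA in 0. Among all 32851 windows of this length, the shares with a match were 12.4%, 33.8%, 32.7%, 12.6% and 6.75%, in the same order.

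Levels were first set side by side per kb of exon, so that long and short mRNAs could be compared. Biglycan was the most abundant SLRP mRNA of these cells, with 927 ± 468 CPM per kb in WT and 768 ± 26.9 CPM per kb in HOMO (mean ± SD, n = 4 libraries each). In HOMO libraries Prelp (91.1 ± 27.2), Ogn (79.2 ± 58.1) and Dcn (77.5 ± 8.78 CPM per kb) had the next highest means and overlapped in range. Fmod (24.5 ± 6.76) and Lum (14.3 ± 3.19 CPM per kb) followed and overlapped narrowly. Ogn overlapped Fmod as well, and in HOMO3 and HOMO4 its share of the family sum (2.67 and 2.98%) was below that of Fmod (2.83 and 3.03%). Podn (4.33 ± 1.48), Omd (0.491 ± 0.362) and Aspn (0.0679 ± 0.0622 CPM per kb) stood below, each with a range that did not reach its neighbour in this order.

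In WT the order was Bgn, Prelp (337 ± 329), Dcn (116.5 ± 78.3), Fmod (50.9 ± 15.7), Ogn (45.6 ± 66.9), Podn (28.9 ± 27.8), Lum (15.3 ± 16.1), Aspn (8.94 ± 17.6) and Omd (0.237 ± 0.170 CPM per kb). Every neighbouring pair of this order overlapped in range. Dividing by the longest transcript in place of all exon bases raised Bgn to 2122 CPM per kb in WT and 1757 in HOMO, and moved Dcn (96.5) above Prelp (91.1) in HOMO.

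Summed over the family, the level was 830, 1008, 1502 and 2783 CPM per kb in WT1 to WT4. In HOMO1 to HOMO4 it was 1087, 1096, 993 and 1062 CPM per kb. The HOMO libraries thus lay within a narrow band that the WT range enclosed. Bgn made up 73.9, 70.8, 50.7 and 58.3% of the sum in WT1 to WT4 and 71.1, 72.9, 73.9 and 72.1% in HOMO1 to HOMO4. The second place changed between libraries. Prelp gave 24.5% of the sum in WT3 and 28.4% in WT4 but 9.91 and 10.5% in WT1 and WT2, while Ogn gave 12.4 and 11.3% in HOMO1 and HOMO2 and 2.67 and 2.98% in HOMO3 and HOMO4.

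**Figure D1:**
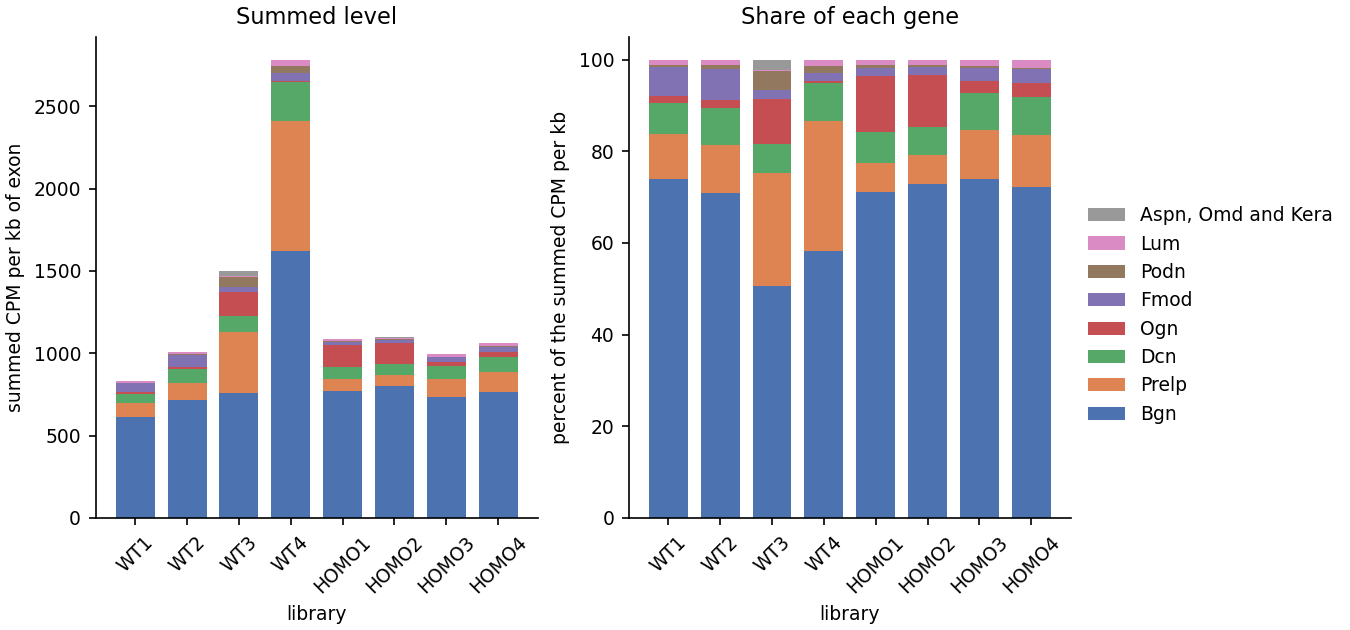
Summed level of the 10 genes in CPM per kb of exon (left) and the percent that each gene contributes (right), 1 bar per library. WT4 has the tallest bar at 2783 CPM per kb, the HOMO bars run from 993 to 1096, and Bgn is the largest part of every bar.

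The central comparison asked whether expression of human IGFBP5 changed SLRP mRNAs in these fibroblasts. Of the 8 genes tested with edgeR's quasi-likelihood F test, Fmod fell in HOMO and 0 rose, at an adjusted p under 0.05 and a log2 fold change above 0.6 in size. Over all 14150 genes tested, 12.1% were called, 6.18% lower and 5.94% higher in HOMO, so that 1 of 8 is close to the background. An unadjusted p under 0.05 was reached by 3 members, Fmod, Podn and Prelp. Such a p was common. In the edgeR fit with robust dispersion estimation, otherwise the same, 4542 of the 14150 genes tested had one. The log2 fold change was below 0 for 6 of the 8 genes, with a median of -0.43 against -0.04 for all genes tested. WT and HOMO levels overlapped for all 8, while 27.3% of the genes tested had levels that did not overlap between genotypes.

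Fmod encodes fibromodulin, which binds type I collagen and takes part in fibril assembly. It stood at 172, 231, 103.5 and 166 CPM in WT1 to WT4. In HOMO1 to HOMO4 it stood at 61.1, 63.5, 93.0 and 106.5 CPM. Every HOMO library was below every WT library apart from WT3, which lay below HOMO4. The group means were 168 ± 52.0 and 81.0 ± 22.3 CPM (SD, n = 4 each), and the log2 fold change was -1.05 ± 0.27 (SE, adjusted p = 0.0394 by edgeR). The direction held in every alternative fit, and the call did not. Leaving out WT1 (adjusted p = 0.0668), WT2 (0.0802), WT4 (0.0592) or HOMO1 (0.122), HOMO2 (0.124), HOMO3 (0.0724) or HOMO4 (0.0554) in edgeR ended it, as did summing the near-identical pairs to 3 WT and 2 HOMO units (0.390).

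Podn encodes podocan, a collagen-binding SLRP known as a brake on smooth muscle cell growth. Its levels were 19.7, 29.8, 262 and 182 CPM in WT1 to WT4 and 25.1, 22.2, 11.1 and 15.6 CPM in HOMO1 to HOMO4. WT3 and WT4 were thus far above all other libraries, while WT1 lay inside the HOMO range and WT2 just above it. The log2 fold change of -2.74 ± 0.80 (SE, n = 4 each) had the largest size among the members in edgeR but missed the threshold (adjusted p = 0.0543). It passed without WT1 (-3.09, adjusted p = 0.0302) and without WT2 (-3.06, 0.0444), the low WT libraries, and with no filter on low counts (-2.71, 0.0459). With WT1 and WT2 as the only WT libraries, an alternative added after the data were seen, the log2 fold change was -0.42 for Podn and -1.32 for Fmod. That fit leaves out by construction the libraries high in Podn, and its WT arm is a near-identical pair, in effect 1 unit, so that nothing is read from its calls, which took in 20.9% of the genes tested.

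Prelp, or prolargin, anchors basement membranes to the collagen network through its heparin-binding end. It was at 297, 383, 1332 and 2860 CPM in WT1 to WT4. In HOMO it was at 247, 245, 390 and 436 CPM. WT4 and WT3 again stood apart, and WT1 and WT2 fell inside the HOMO range. The log2 fold change was -1.89 ± 0.68 (SE, n = 4 each, adjusted p = 0.0972 by edgeR) and shrank to -1.03 without WT4 and to -0.05 with WT1 and WT2 as the only WT libraries. In limma-voom with sample quality weights it was -0.10 for Prelp and -0.81 for Podn. DESeq2, which called 16.5% of its tested genes, called Prelp (-1.89, adjusted p = 0.0176) and Podn (-2.73, 0.00125) besides Fmod.

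Marker genes of other cells also moved across the WT libraries, and not all in the same way. The summed level of the 8 leukocyte and macrophage markers was 132, 159, 2059 and 1189 CPM in WT1 to WT4 and 57.8, 61.8, 166 and 189 CPM in HOMO1 to HOMO4, so that WT3 and WT4, the libraries high in Podn and Prelp, stood apart here too. Lyz2, the lysozyme of myeloid cells, made up 1707 CPM of the sum in WT3. Ptprc, the pan-leukocyte CD45, was at 13.4 CPM in WT3, 22.1 CPM in WT4 and 0.454 to 2.71 CPM elsewhere. Cd14 did not follow, with 53.5 CPM in WT3 but 20.9 CPM in WT4 and 28.8 to 37.7 CPM in HOMO. All 8 were detected above 3 counts in some library, 5 had an unadjusted p under 0.05, all lower in HOMO, and 0 were called by edgeR. With robust dispersion estimation, 4542 of all 14150 genes tested had such a p. The mesothelial sum was also higher in WT3 (235 CPM) and WT4 (148) than in WT1 (58.5) and WT2 (52.8), with 106 to 152 CPM in HOMO. This list was mixed. Krt19 ran the other way, at 35.4, 28.4, 3.27 and 0.581 CPM in WT1 to WT4. Wt1 was called higher in HOMO, with means of 3.26 CPM in WT and 33.3 CPM in HOMO (log2 fold change 3.36, adjusted p = 0.0166 by edgeR).

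Other marker sums stood apart in WT3 alone, the library in which Aspn, Ogn and Podn peaked, but not every gene of these lists was high there. The alveolar fibroblast sum was 351, 339, 1095 and 311 CPM in WT1 to WT4, against 76.6 to 135 CPM in HOMO. Itga8 gave 605 CPM and Limch1 400 CPM of its WT3 value. Npnt (63.8 CPM) and Tcf21 (5.39 CPM) of the same list were lower in WT3 than in any other WT library. Npnt was called lower in HOMO (log2 fold change -2.06, adjusted p = 0.0365 by edgeR). The adventitial fibroblast sum was 91.3, 111, 579 and 101 CPM, against 78.6 to 180 CPM in HOMO, and 500.5 CPM of its WT3 value came from Dpt. Cd34 of this list ran otherwise, at 7.82, 6.56, 4.07 and 1.05 CPM in WT1 to WT4. It stood at 30.1, 30.1, 74.5 and 56.9 CPM in HOMO1 to HOMO4 and was called higher (log2 fold change 3.30, adjusted p = 0.0123 by edgeR). The smooth muscle and pericyte sum was 879, 824, 2724 and 924 CPM, against 261 to 1471 CPM in HOMO. Acta2 gave 2418 CPM of its WT3 value, while Notch3 (16.8 CPM) and Rgs5 (0.689 CPM) were lowest in WT3 among WT libraries. Rgs5, at 36.1 CPM in WT4, was called lower in HOMO (log2 fold change -5.20, adjusted p = 0.0486 by edgeR). The epithelial and endothelial sums stayed at or below 16.2 and 4.14 CPM in every library, with Cldn5, Tie1 and Emcn at 3 counts or fewer, and the sum for cartilage, bone and tendon was 4.41 to 25.3 CPM in WT and 6.02 to 10.6 CPM in HOMO. In these bulk libraries, fewer cells of a kind cannot be told apart from less RNA per cell, and the part of any marker list in the proteoglycan values was not tested.

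For each chromosome that carries a member, the median gene was set against the other libraries of its genotype, with no genome-wide median beside it. The median gene of chromosome 4, which carries Podn, stood 0.36 higher on the log2 scale in WT4 than the mean of the other WT libraries, but 0.03 lower (-0.03) in WT3, where Podn was highest. For chromosome 10, which carries Dcn and Lum, this difference in WT4 was 0.23. It was 0.11 for chromosome 1, 0.03 for chromosome 13 and -0.07 for chromosome X.

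**Figure D2:**
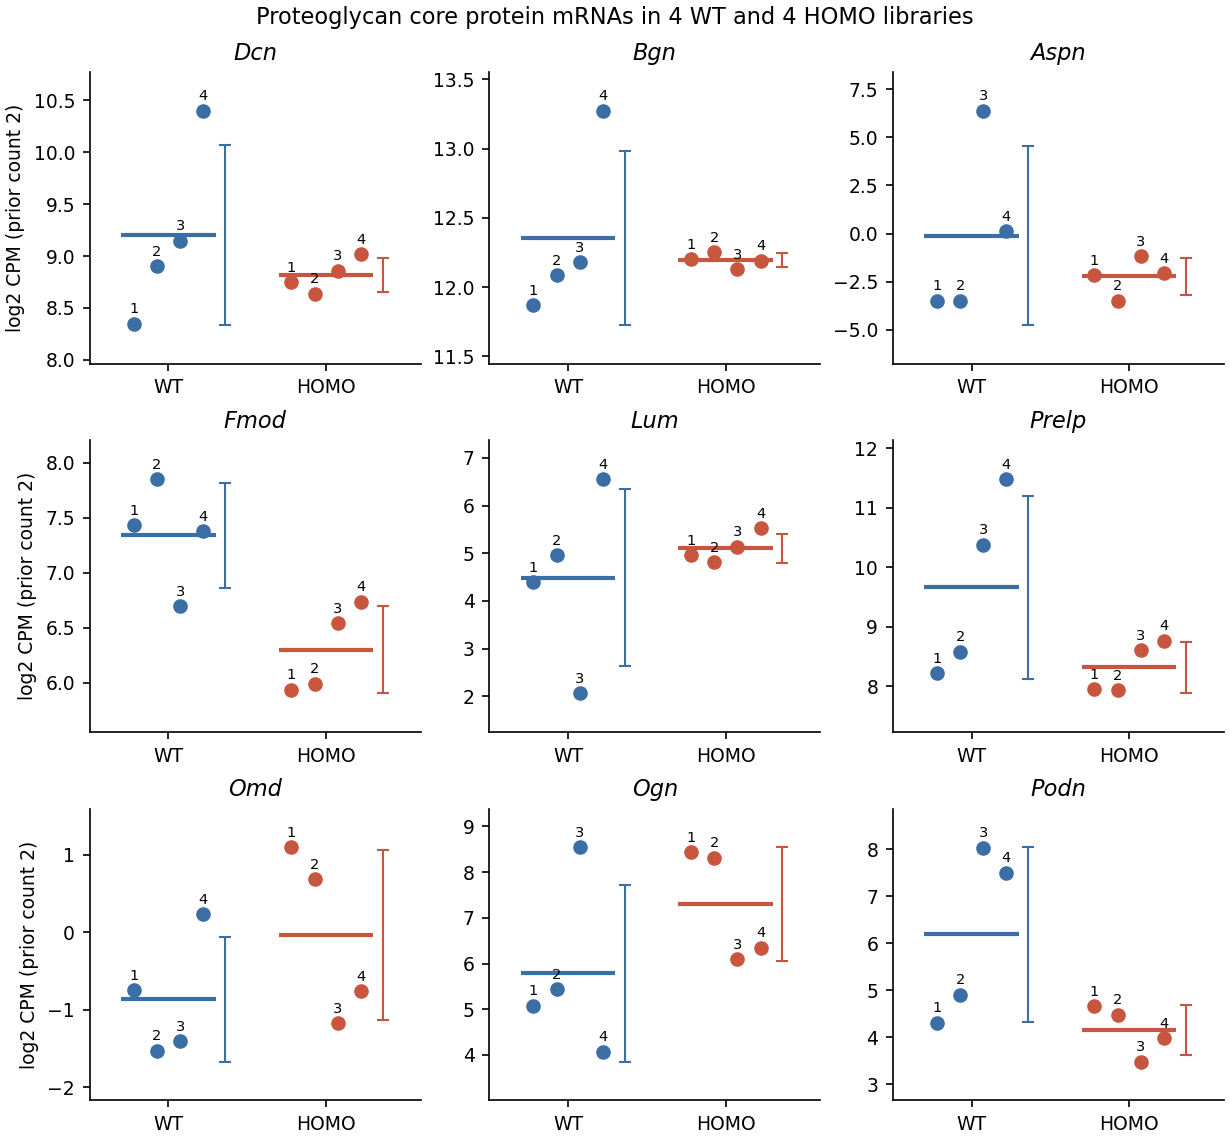
Level of each detected gene as log2 CPM with a prior count of 2, with 1 point per library marked by its replicate number, the mean as a line and the SD as an error bar (n = 4 libraries per genotype). Kera, with 0 counts, is left out, the y axes differ between genes, and the WT points spread more widely than the HOMO points for every gene but Omd.

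The class I genes Dcn and Bgn carry chondroitin or dermatan sulfate chains, and both proteins bind TGF-beta. Dcn was at 326, 479, 567 and 1350 CPM in WT1 to WT4 and at 430.1, 398, 464 and 518 CPM in HOMO1 to HOMO4. Bgn was at 3738, 4352, 4639 and 9895 CPM in WT and at 4715, 4875, 4476 and 4671 CPM in HOMO. WT4 held the highest level of both, and WT1 held the lowest. The log2 fold changes were -0.59 ± 0.40 for Dcn (adjusted p = 0.336) and -0.27 ± 0.32 for Bgn (0.590, both SE with n = 4 each, by edgeR). Without WT4 they came to -0.01 and 0.14, and with WT1 and WT2 as the only WT libraries they were 0.17 and 0.21, so that the sign for Bgn rested on WT4.

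Dcn and Bgn were also the most alike of the 28 pairs of tested members. Centred on each gene's own mean, their log2 levels differed by a root mean square of 0.24 over the 8 libraries, against a median of 1.32 over all pairs. Profiles close to either were common, with 1681 tested genes within 0.5 of Dcn and 5056 within 0.5 of Bgn. Dcn and Bgn lie on different chromosomes. The values share libraries and depth, so that their likeness is a description.

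Lumican (Lum), a keratan sulfate proteoglycan best known for spacing the collagen fibrils of the cornea, lies next to Dcn but differed from it in WT3. Lum was at 20.9, 30.9, 4.07 and 94.1 CPM in WT1 to WT4, a span of 23.1-fold. In HOMO1 to HOMO4 it was at 30.9, 27.9, 35.2 and 45.8 CPM, all inside that span. The log2 fold change was -0.10 ± 0.72 (SE, n = 4 each, adjusted p = 0.939 by edgeR) and became 0.91 without WT4, with an adjusted p of 0.303. The root mean square difference of Lum from Ogn, 2.52, was the greatest of the 28 pairs. Kera, or keratocan, the third SLRP of this stretch and a cornea protein, had 0 counts in all 8 libraries, which allows up to 0.0908 to 0.172 CPM.

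The chromosome 13 neighbours differed from each other. Osteoglycin (Ogn), also called mimecan, was at 33.7, 43.5, 374 and 16.7 CPM in WT1 to WT4. In HOMO1 to HOMO4 it was at 345, 319, 68.1 and 81.3 CPM. The HOMO libraries split into their near-identical pairs, with HOMO1 and HOMO2 4.44-fold above HOMO3 and HOMO4, and WT3 was higher than any of them. The log2 fold change of 0.80 ± 0.99 (SE, n = 4 each) was not called by edgeR (adjusted p = 0.612). Without WT3 it was 2.70 and passed (adjusted p = 0.0373), and with WT1 and WT2 as the only WT libraries it was 2.40. Limma-voom, which called 25.3% of all genes tested, also called Ogn (1.55, adjusted p = 0.0233) beside Fmod.

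Osteomodulin (Omd), a keratan sulfate SLRP of bone, was near the limit of detection, where WT1 to WT4 held 9, 6, 5 and 28 counts and HOMO1 to HOMO4 held 46, 50, 7 and 10. As for Ogn, HOMO1 and HOMO2 were the upper pair, at 2.05 and 1.51 CPM, 4.16-fold above HOMO3 and HOMO4. Unlike Ogn, Omd was not raised in WT3, at 0.287 CPM. The log2 fold change was 1.03 ± 0.68 (SE, n = 4 each, adjusted p = 0.325 by edgeR).

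Asporin (Aspn), a class I SLRP whose protein binds calcium and collagen, was seen almost wholly in WT3. WT1 to WT4 held 0, 0, 1449 and 26 of its counts and HOMO1 to HOMO4 held 3, 0, 7 and 3, equal to 83.2 CPM in WT3, 1.01 CPM in WT4 and at most 0.355 CPM elsewhere. Aspn did not pass the filter, since too few libraries held it. The two-sided exact permutation test of its mean CPM over the 70 assignments of 8 libraries to genotypes gave p = 0.429, where the smallest possible p is 0.0286. WT3 was also the library with the highest levels of Ogn and Podn and the lowest of Lum. Cenpp, the gene around the cluster, ran otherwise, at 6.25, 6.13, 0.975 and 0.426 CPM in WT1 to WT4 and 1.02, 0.908, 3.24 and 2.31 CPM in HOMO1 to HOMO4.

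**Figure D3:**
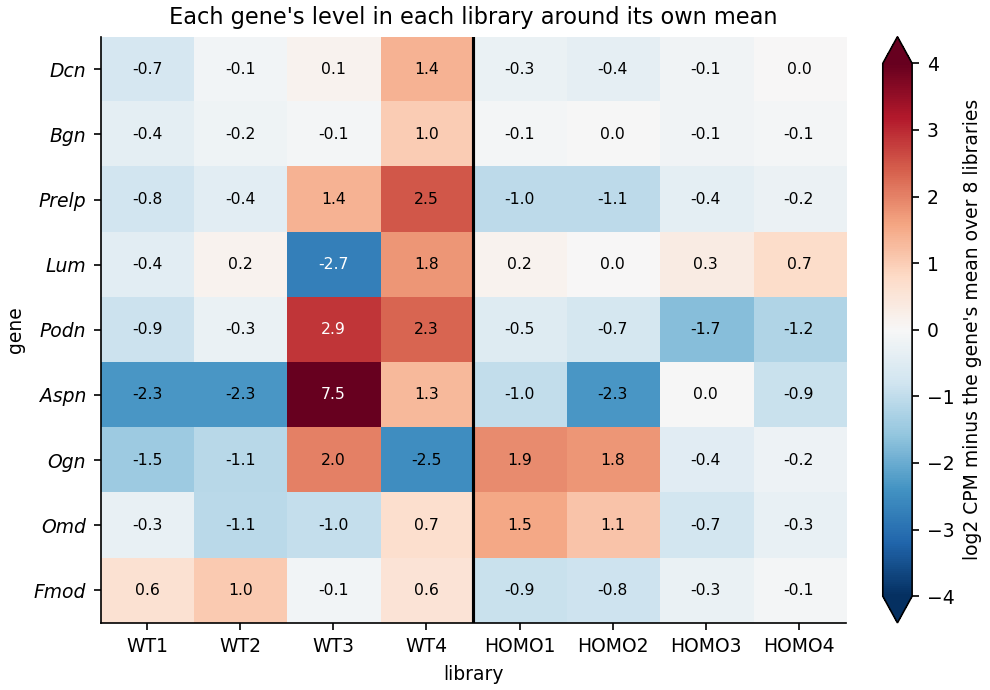
Log2 CPM of 9 genes (rows) in 8 libraries (columns), each minus the gene's own mean over all libraries, with WT left and HOMO right of the black line. WT3 and WT4 hold most of the strong colours, with Aspn in WT3 beyond the scale, and HOMO1 and HOMO2 differ from HOMO3 and HOMO4 chiefly in Ogn and Omd.

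Of the 9 genes with counts, 8 were highest in a WT library, 4 of them in WT4, 3 in WT3 and 1 in WT2, and Omd was highest in HOMO1. The distance from the lowest to the highest WT library had a median of 2.66 on the log2 scale over the 8 tested members, against 0.97 over all genes tested. Among HOMO libraries these medians were 0.82 and 0.43. The WT range exceeded the HOMO range in 7 of 8 members and in 83.2% of all genes tested. Wider WT than HOMO spread was thus the rule in these libraries. The span of Lum and Ogn in WT was exceeded by 1.68 and 1.75% of the genes tested, and that of Bgn among HOMO libraries by 93.1%.

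**Figure D4:**
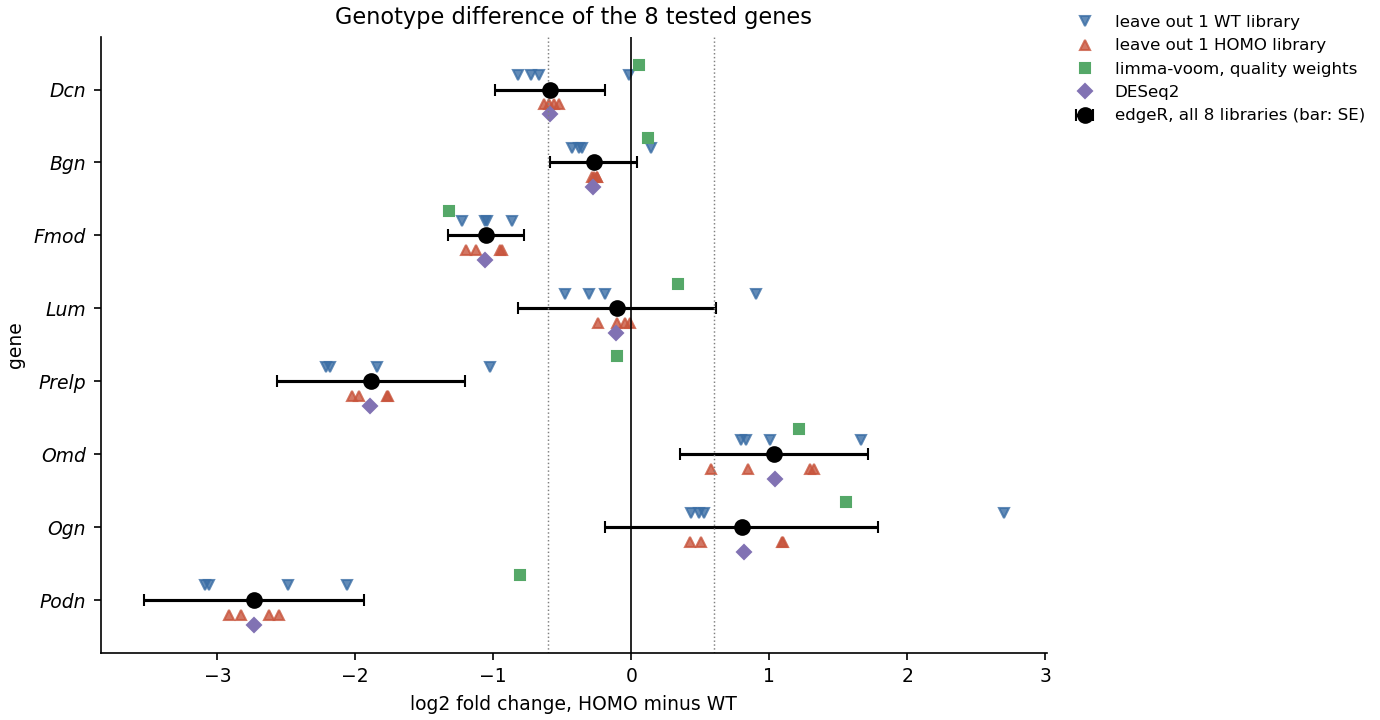
Log2 fold change of HOMO against WT for the 8 tested genes, with black points and SE bars for edgeR on all libraries, triangles for fits that leave out 1 library, squares for limma-voom and diamonds for DESeq2. Dotted lines mark 0.6 in either direction, Fmod stays between -0.86 and -1.32 in the fits plotted, and leaving out WT4 turns Lum and Bgn to the right of 0.

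By the rule set for likeness, the 3 tested genes with the smallest root mean square difference from each member's centred log2 profile over the 8 libraries were taken. For Fmod they were Ltbp2 (0.15), Timp1 (0.16) and Anxa1 (0.17), which encode a latent TGF-beta binding protein, a metalloproteinase inhibitor and annexin A1. For Prelp they were Col12a1 (0.24), a fibril-associated collagen, Fgf10 (0.29) and Lims2 (0.31), and for Dcn they were AC161607.1 (0.13), Itga11 (0.19), a collagen-binding integrin, and 6330403L08Rik (0.19). Profiles like those of Fmod and Dcn were common, with 1146 and 1681 tested genes within 0.5, against 37 for Prelp. The profile of Bgn, nearly flat outside WT4, came closest to Itpk1 (0.04), Rhoq (0.09) and Max (0.09), and 5056 tested genes lay within 0.5 of it. The profiles of Ogn and Podn had few neighbours, with 3 and 2 genes within 0.5. Those nearest were Tmem108 (0.31), Cldn1 (0.46) and A730049H05Rik (0.49) for Ogn and Pcdhb3 (0.48), Igfbp3 (0.50) and Cdo1 (0.51) for Podn. Lum was nearest to Gm13091 (0.18), Gm4473 (0.31) and Gpr17 (0.38), and Omd to Gp1ba (0.34), Rnf144a (0.38) and 3110053B16Rik (0.38).

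Genes outside the family within 250 kb of a member were also read. Of 26 such genes tested, 3 were called by edgeR, which is close to the 12.1% of all genes tested. Beside the chromosome 13 cluster 6 were tested, and 2 of them fell in HOMO, Bicd2 (-0.63, adjusted p = 0.0230) and Fgd3 (-1.64, 0.0258), by edgeR. Btg2, an antiproliferative gene beside Fmod, had a log2 fold change of 0.57, under the threshold in size, with an adjusted p of 0.0302 by edgeR. No tested gene outside the family lay within that distance of Dcn, Lum and Kera. Scp2, a sterol carrier gene on the strand of Podn whose span overlaps it without shared exon bases, was at 67.6, 87.4, 262 and 254 CPM in WT1 to WT4 and at 63.9 to 75.5 CPM in HOMO. Like Podn, Scp2 was high in WT3 and WT4, and its root mean square difference from Podn was 0.79.

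The further genes of the SLRP family were not called. None of the 6 tested passed in edgeR, DESeq2 or limma-voom, and 1, Optc, had an unadjusted p under 0.05 in edgeR. Tsku, or tsukushi, was the most abundant, with 55.6 ± 9.48 CPM in WT and 62.0 ± 3.81 CPM in HOMO (SD, n = 4 each, log2 fold change 0.16). Podnl1, a paralog of Podn, was at 5.75 to 9.25 CPM in WT and 3.12 to 5.68 CPM in HOMO, without overlap but with an adjusted p of 0.163 by edgeR. The log2 fold changes of the other 4 were -0.60 for Chadl, -1.32 for Optc, -0.66 for Ecm2 and 0.65 for Chad. Nyx and Epyc had too few counts to be tested.

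The enzymes that build the sugar chains were read from fixed lists. Of 19 tested genes for the linkage region and for chondroitin or dermatan sulfate, 6 fell in HOMO and 0 rose, where 6.18% of all genes tested fell, and the median log2 fold change was -0.48. Chst7, a chondroitin 6-sulfotransferase, fell the most, from 5.18, 5.10, 12.1 and 3.44 CPM in WT1 to WT4 to 0.713, 0.333, 1.37 and 1.35 CPM in HOMO1 to HOMO4 (log2 fold change -2.79 ± 0.56 SE, adjusted p = 0.0178 by edgeR). Chst15 (-1.09), Chpf2 (-0.86) and B4galt7 (-0.86) followed, the last the galactosyltransferase that adds the second sugar of the linkage region. The levels of these genes did not overlap between genotypes, as for 27.3% of all genes tested. They were named for large called changes, so that this adds no further evidence. The count was 1 without HOMO1, 2 without HOMO2, and 3 without HOMO3 or HOMO4, and it was 9 in DESeq2, 3 in limma-voom and 0 with the near-identical libraries summed. Of 7 tested keratan sulfate genes, only B4galt4, a galactosyltransferase, was called, where 12.1% of all genes tested were. It rose from 11.8 to 44.7 CPM in WT to 68.4 to 98.3 CPM in HOMO (1.78 ± 0.40 SE, adjusted p = 0.0245 by edgeR). The call was lost without HOMO1, HOMO2 or WT2, and 2 genes of the list were called without WT3 or WT4.

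Among the partners of SLRPs, 1 of 13 tested collagens (fibrillar, fibril-associated and type VI) was called, where 12.1% of all genes tested were. Col11a2 rose from 1.74 to 8.59 CPM in WT to 11.7 to 18.7 CPM in HOMO (1.96 ± 0.51 SE, adjusted p = 0.0384 by edgeR). The list went both ways, with a median log2 fold change of 0.63 and an unadjusted p under 0.05 for 5 genes higher and 4 lower in HOMO. Of all 14150 genes tested, 4542 had such a p with robust dispersion estimation. The lowest values were -2.86 for Col14a1 and -2.03 for Col12a1, neither called. The authors, with DESeq2, reported both of these and Col5a1 as downregulated. They reported Col1a1, Col1a2, Col6a1, Col6a2 and Col11a2 as upregulated. DESeq2 and limma-voom each called 8 genes of this list. EdgeR called 0 of them without WT2 or any HOMO library, 2 without WT3 and 4 without WT4. Of 23 tested receptors and ligands, 5 fell and 0 rose, where 6.18% of all genes tested fell and 5.94% rose. Tgfb2, a ligand that decorin and biglycan bind, fell from 55.8, 60.8, 80.2 and 73.5 CPM in WT1 to WT4 to 31.9, 28.7, 28.0 and 30.8 CPM in HOMO1 to HOMO4 (-1.18 ± 0.15 SE, adjusted p = 0.00358 by edgeR). Fbn1, the fibrillin of microfibrils, fell by 1.04 on the log2 scale, and P2rx7, a purinergic receptor that biglycan engages, fell by 3.39. Bmp6 fell by 4.32, with 85.7 CPM in WT4 against 3.04 to 8.66 CPM in the other WT libraries. The count for this list was 1 without HOMO1 or HOMO2, 3 without HOMO3, 2 without HOMO4, 10 without WT3 and 9 without WT4, and it was 8 in DESeq2 and 14 in limma-voom.

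The list of proteases that cleave SLRPs also held Pcolce and Pcolce2, which encode enhancers of the procollagen C-proteinase and are no proteases. Of its 17 tested genes 0 were called by edgeR, against 12.1% of all genes tested. An unadjusted p under 0.05 in edgeR was reached by 6 (2 higher, Pcolce2 among them, and 4 lower in HOMO), against 4542 of all 14150 genes tested with robust dispersion estimation. DESeq2 called 5 and limma-voom 6. EdgeR called 1 without WT3 and 2 without WT4. The authors reported Pcolce2 as upregulated, by RNAseq and by qRT-PCR in cells of female mice, and Mmp2 as downregulated. By edgeR their log2 fold changes were 3.13 (adjusted p = 0.0543) and -1.57 (0.0820). Of 19 tested core and link proteins of other proteoglycans, 2 rose and 3 fell, where 5.94% of all genes tested rose and 6.18% fell. Tgfbr3, or betaglycan, rose from 139 to 163 CPM in WT to 231 to 400.0 CPM in HOMO (1.08 ± 0.22 SE, adjusted p = 0.0171 by edgeR), and Hapln4, a link protein, rose by 1.38 on the log2 scale. The syndecan Sdc3 changed by -2.04, the glypican Gpc4 by -0.90 and Sdc2 by -0.85. The count of 5 was 0 without HOMO1 or HOMO2, 3 without HOMO3, HOMO4 or WT4, and 8 without WT3 or in limma-voom. In all, 18 of 104 tested genes of these 7 lists were called, 17.3% against 12.1% of all genes, 4 higher and 14 lower in HOMO. With the near-identical libraries summed, 0 of them were, and leaving out 1 library gave between 2 (without HOMO1) and 27 (without WT3).

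**Figure D5:**
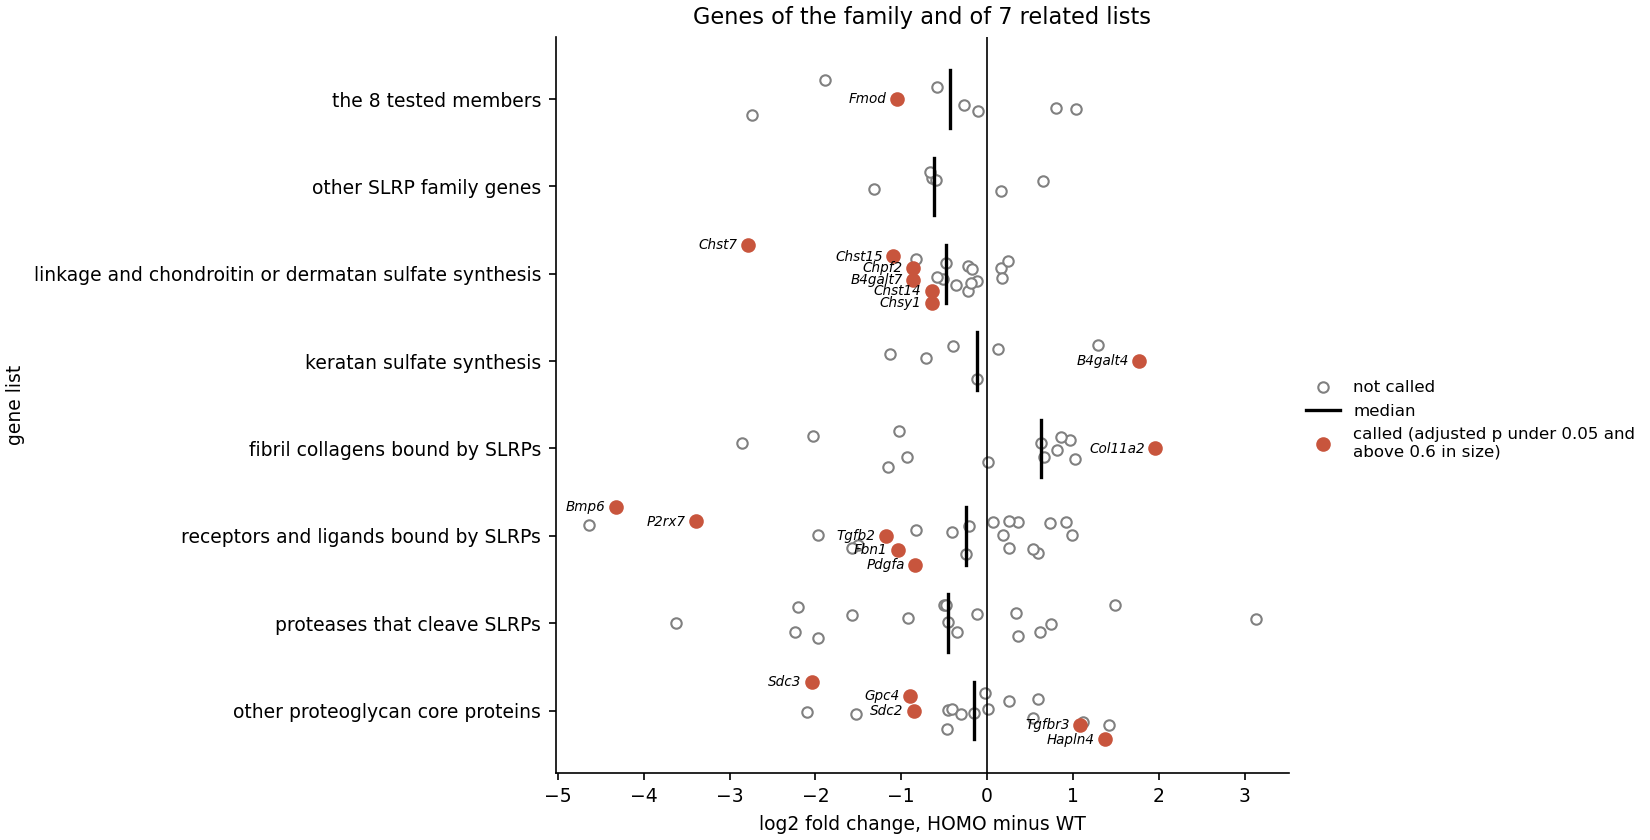
Log2 fold change of HOMO against WT by edgeR for the 8 tested members and the tested genes of 7 related lists, with called genes filled and named and a bar at each median. The medians run from -0.62 for the further SLRP genes to 0.63 for the collagens, and every called gene of the chondroitin or dermatan sulfate list lies left of 0.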

How the data were processed

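The deposited table holds counts per gene symbol that the authors made with fastp, STAR (mm10) and featureCounts, and counts were not normalized. The versions and the strand setting are not given in the sources used here. Its name carries the word "outlierout", whose meaning is not stated. All 8 libraries were used, 4 WT and 4 HOMO. Of 54532 entries, 53877 matched a GENCODE M21 symbol.

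HOMO was compared with WT by the quasi-likelihood F test of edgeR 4.0.16 (R 4.3.3) after TMM scaling and filterByExpr, with adjustment over 14150 genes. The authors used DESeq2, which served here as an alternative (1.42.0), as did limma 3.58.1. DEGs had an adjusted p under 0.05 and a log2 fold change above 0.6 in size. SE is the log2 fold change over the square root of F. The tests were tested on simulated data. Figures and tables used Python 3.11.15, scipy 1.17.1 and matplotlib 3.10.9.

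The members and lists were chosen with earlier results of these data known. Named were all members, up to 4 called genes per list with the largest changes, the further SLRP genes, the 3 nearest profiles per member and called or overlapping genes within 250 kb. An item that meets this rule is not reported here. Igfbp5, Scp2, Cenpp and the markers were named as context. Alternatives were other normalizations, filters and tools, a replicate block, summed pairs, no fold threshold and leaving out each library. Keeping WT1 and WT2 alone was added after the data were seen.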

Additional observations from a re-analysis of the deposited data

Results flagged for a closer look

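Over the 30 named genes, each genotype's 4 libraries were searched for a library whose gap to its nearest neighbour, as a share of the group's whole range of log2 CPM, exceeded Dixon's 95% critical value for 4 libraries. By chance, about 1 in 20 groups of independent libraries passes, a rate that need not hold here, where some libraries were near-identical. Of the 60 groups, 1 did, and it held no member of the family. Sdc3, a syndecan, stood at 6.55 log2 CPM in WT3 against 7.15, 7.21 and 7.23 in the other WT libraries, a ratio of 0.871. No group of a family member passed, but the search can hardly find a library apart where libraries fall into near-identical pairs, as in HOMO. It also passed over Aspn, which stood at 6.38 log2 CPM in WT3 against -3.49, -3.49 and 0.132 in WT1, WT2 and WT4.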

How the results depend on the processing

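Of 143 recomputed fold changes of members, 118 kept their direction and their side of the threshold, 9 reversed, 9 lost a call and 7 gained one. All lost calls were of Fmod. The reversals, none of them called, were Dcn 0.059, Bgn 0.12 and Lum 0.34 in limma-voom, Dcn 0.17, Bgn 0.21 and Lum 0.43 with WT1 and WT2 as the only WT libraries, Bgn 0.14 and Lum 0.91 without WT4 (leave-one-out ranges -0.43 to 0.14 and -0.48 to 0.91), and Lum 0.51 with the replicate block. Members called lower numbered 1 in edgeR, 3 in DESeq2, 2 with no filter on low counts, 0 with summed pairs and 0 to 1 when a library was left out. Members called higher numbered 0, against 1 in limma-voom and 0 to 1 when a library was left out. Called genes of the related lists numbered 18, against 37 in DESeq2, 42 in limma-voom, 37 with WT1 and WT2 as the only WT libraries, 0 with summed pairs and 2 to 27 when a library was left out. The cause of these differences was not tested. Summing left 5 units, 0 DEGs over all genes and 2057 genes at an unadjusted p under 0.05. With 1 library left out, DEGs over all genes numbered from 507 (without HOMO1) to 2192 (without WT3), against 1716 in edgeR on all libraries, 2913 in DESeq2, 3573 in limma-voom and 3117 with WT1 and WT2 as the only WT libraries.

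Same-numbered WT and HOMO libraries did not deviate together, with correlations of -0.12 to 0.01. With near-identical libraries in both genotypes, these values cannot decide whether the replicate number is a pairing. With the replicate number as a block in edgeR, 0 members were called (Fmod adjusted p = 0.107), 10 genes of the lists and 947 genes in all. Depth limits Omd, Aspn and Kera.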
